A study of Homo sapiens with 2 samples.

Results

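The DHRS and RDH genes described here encode short-chain dehydrogenases, a large enzyme family that uses NAD or NADP to convert alcohols and carbonyl compounds into each other. The genes named were DHRS2, DHRS3, DHRS4, DHRS7, DHRS9, RDH10, RDH11, RDH13 and RDH14, 9 genes in all. Every probe set annotated to 1 of these symbols alone was taken, which gave 21 probe sets for 7 genes, out of 41097 such probe sets for 19775 genes on the array. DHRS4 and RDH14 have no probe set of their own. Each was covered by 1 probe set that is annotated to a second gene as well, and these 2 probe sets were kept apart from the others.

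Several of these enzymes act on vitamin A. Retinol is oxidized to retinal by retinol dehydrogenases such as RDH10, and retinal is then oxidized to retinoic acid, the ligand of the retinoic acid receptors. Retinal reductases such as DHRS3 and RDH11 work in the opposite direction and return retinal to the retinol pool. PRAME is a tumor antigen known as a repressor of the retinoic acid receptor, and the study asked how its loss changes Hodgkin lymphoma (HL) cells.

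The series held 2 arrays of the HL cell line L-428, a cell line known for high PRAME expression. One array was made from cells that carried pcDNA6.2-GW/EmGFP-miR-PRAME, a vector with an artificial microRNA against PRAME, and the other from vector control cells, which carried pcDNA6.2-GW/EmGFP-miR-neg. Both groups thus carried the EmGFP reporter, and stable transfectants were selected with blasticidin. Whether the cells were a pool or a clone is not given in the sources used here, and the labels name no further treatment. The values analyzed were MAS5 signals, a linear measure of brightness, and both arrays had been scaled to one mean. The series design names L-540 cells and another array type, whereas both sample labels name L-428.

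The targeted gene PRAME was at 1251 in the PRAME knock-down cells and at 2115 in the vector control cells (0.57 times the control after centering). Of the markers of Hodgkin and Reed-Sternberg cells, 10 of 11 were above the filter on low signals, and CCL22 was below it. CCL17 and the CD30 gene TNFRSF8 were within 1.5-fold. Of the 10, 2 were at least 1.5-fold lower (5.42% of all measured genes were) and 0 at least 1.5-fold higher (7.54% were). The 2 lower ones were CD40 with 1146 in knock-down and 1850 in control cells and FUT4 with 782 in knock-down and 1177 in control cells. Both genes had other kept probe sets with log2 ratios above 0 (up to 0.66 for CD40 and 0.36 for FUT4). Their medians over kept probe sets were -0.15 for CD40 and -0.14 for FUT4, under 1.5-fold. IL13RA1 was within 1.5-fold by its probe set with the highest signal (-0.40). Over its 4 kept probe sets its median was -0.75, past 1.5-fold. Of 7 B cell markers 5 were above the filter. The summed signal of all 7 was 2393 in knock-down and 2121 in control cells, of which SPIB made up 1409 and 1284. Of the 5, 1 was at least 1.5-fold higher (7.54% of all measured genes were), namely CD79A with 332 in knock-down and 178 in control cells. All 7 T cell markers were below it, as were 6 of 7 myeloid and 6 of 8 epithelial and liver markers. The summed signal of the T cell markers was 427 in knock-down and 337 in control cells, and that of the myeloid markers was 351 in knock-down and 304 in control cells. For the 8 epithelial and liver markers the sum was 993 in knock-down and 1093 in control cells. CDH1 made up 588 and 752 of these sums. The ratio of 3' to 5' signal, a sign of RNA quality, was 1.04 for GAPDH and 1.17 for ACTB in knock-down cells, and 0.948 and 1.14 in control cells.

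Of the genes described, DHRS2 stood lowest in the PRAME knock-down cells, just under 2-fold lower than in the vector control cells in both of its probe sets, and at high signals. DHRS9 was 2.43-fold higher, but at a signal close to the filter. RDH13 had probe sets past 1.5-fold in both directions, each of them under 1.5-fold in some alternatives of the processing. RDH10 had 1 of 3 kept probe sets past 1.5-fold. DHRS3, DHRS7 and RDH11 were within 1.5-fold in each kept probe set. RNA of all cells was measured together, so fewer cells with a transcript and less transcript per cell cannot be told apart.

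With 1 array per condition no test could be made, neither an SD between replicates nor a p-value is given, and precision is limited by this number of arrays. Differences are therefore given as the log2 ratio of knock-down over control cells, centered on the median of the 27307 probe sets above the filter (a mean signal of 97.7), and by the threshold of 1.5-fold. Of the 21 probe sets, 17 were above the filter. Among these, 3 of 17 were at least 1.5-fold lower in the knock-down cells, against 6.2% of all kept probe sets, and 3 of 17 were at least 1.5-fold higher, against 8.21%. The 3 lower probe sets belong to DHRS2 and RDH13, and the 3 higher ones to DHRS9, RDH10 and RDH13. Probe sets of one gene measure transcripts of the same gene and are not independent. Over the 17 probe sets the log2 ratios had a median of 0.10. Taking for each gene the kept probe set with the highest signal, 2 of 7 genes were lower, against 5.42% of all 11794 measured genes, and 1 of 7 was higher, against 7.54%. The median of the 7 genes was -0.25, that of all genes -0.0069. At 2-fold 0 of the 17 probe sets were lower (0.941% of all) and 1 was higher (1.74% of all). By gene, at 2-fold none of the 7 genes was lower (0.729% of all genes) and DHRS9 alone was higher (1.73% of all genes).

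**Figure D1:**
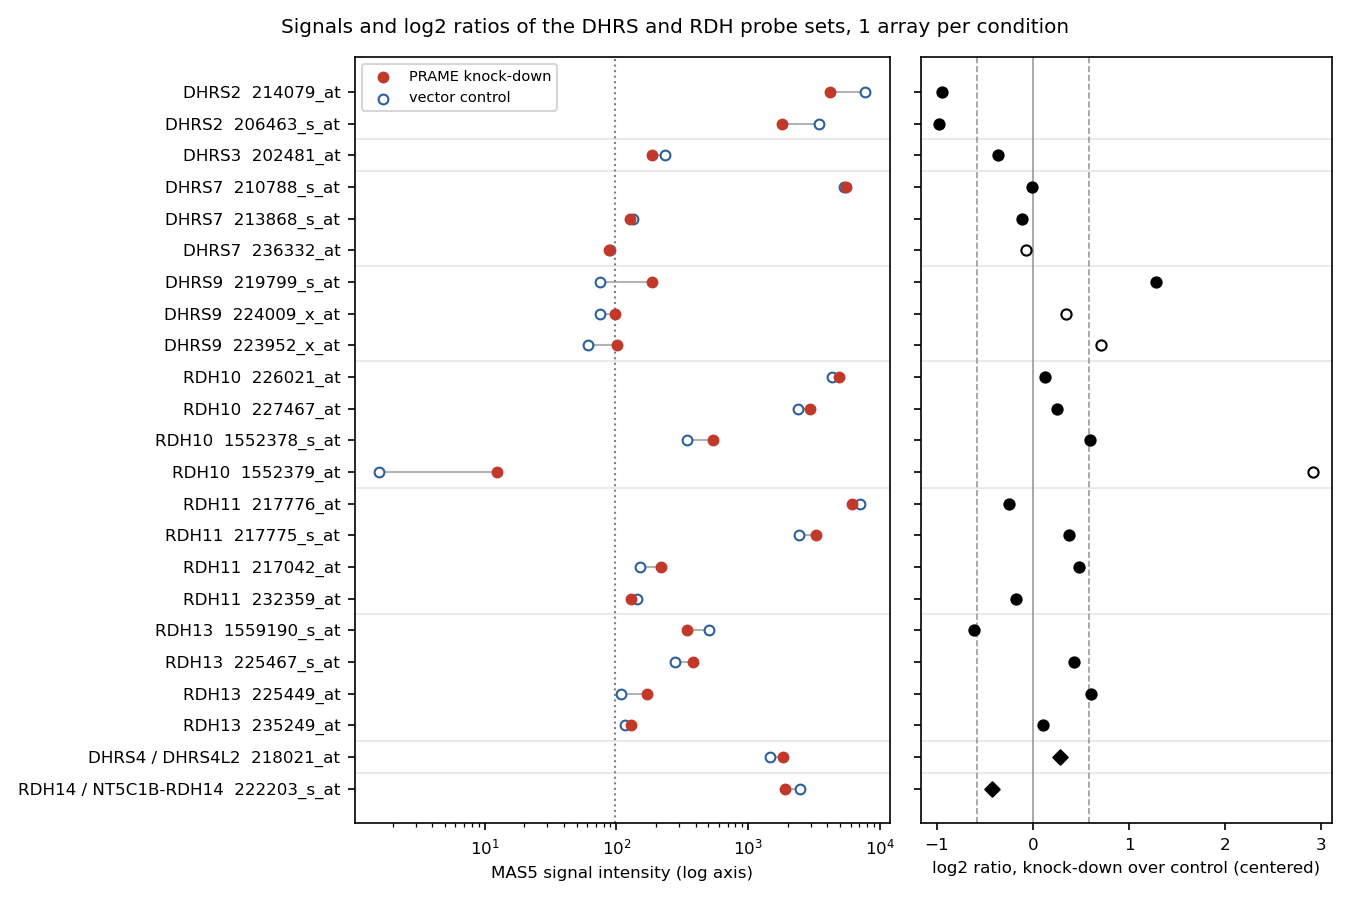
MAS5 signals (left, log axis) and centered log2 ratios of knock-down over control (right) of all 23 probe sets, 1 array per condition. Red points are PRAME knock-down cells, open blue points vector control cells, the dotted line is the filter at 97.7 and dashed lines stand at 1.5-fold; on the right, open points are below the filter and diamonds are probe sets shared with a second gene. Both DHRS2 probe sets lie near -1, whereas the 4 probe sets of RDH13 lie on both sides of 0.

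DHRS2, also known as Hep27, is a carbonyl reductase found in the nucleus and in mitochondria and is known to bind the p53 regulator MDM2. Both of its probe sets were lower in the PRAME knock-down cells. For 214079_at the signals were 4172 in knock-down and 7784 in control cells, a log2 ratio of -0.94. For 206463_s_at they were 1816 in knock-down and 3461 in control cells, a log2 ratio of -0.98. Both probe sets thus gave a difference just under 2-fold (1.92-fold and 1.97-fold lower). They differed from each other by only 0.030 on the log2 scale, and among 3104 other genes measured by 2 kept probe sets 6.44% showed a smaller range. Those genes were taken at any signal, whereas both DHRS2 probe sets lie at high signals, where ratios scatter less.

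The DHRS2 ratios were far down among probe sets of similar signal. When the kept probe sets were divided by mean signal into 10 classes of equal size, 0.11% of the probe sets in the highest class had a lower log2 ratio than 214079_at. In the next class below, 0.256% had a lower log2 ratio than 206463_s_at. The scatter is narrow at such signals, with an SD of log2 ratios of 0.26 in the highest class against 0.55 in the lowest, real differences included. Over 9 alternatives of the processing the log2 ratio of the gene lay between -1.04 and -0.88.

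**Figure D2:**
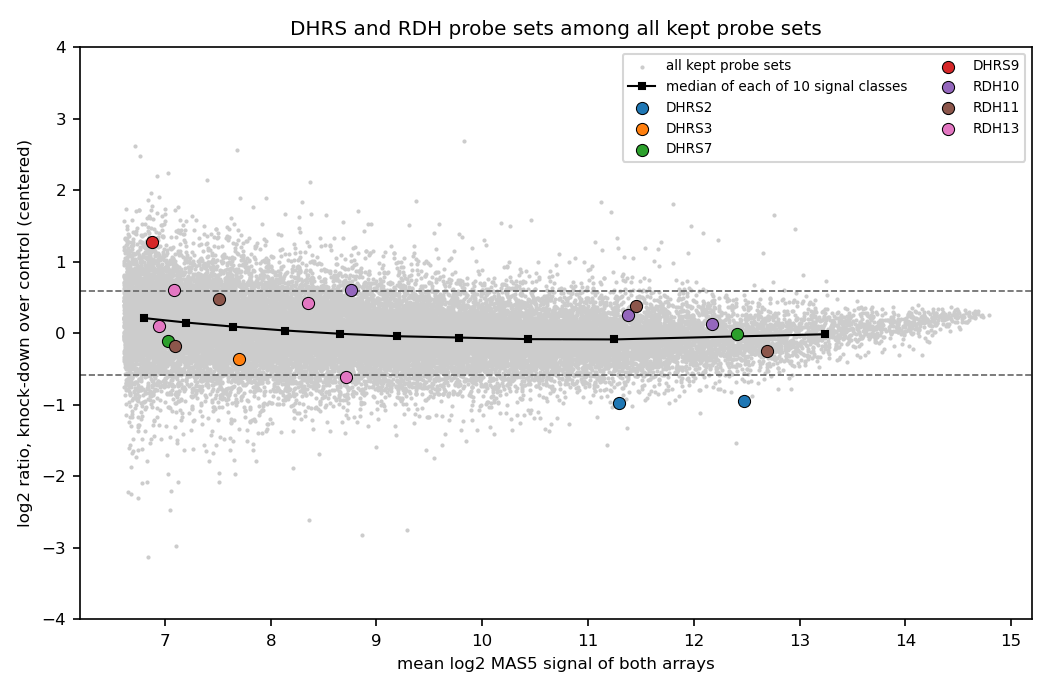
Centered log2 ratio of knock-down over control plotted over the log2 MAS5 signal, averaged over both arrays, for all 27307 kept probe sets (grey points, 1 array per condition). Coloured points are the 17 kept DHRS and RDH probe sets, black squares the median of each of the 10 signal classes, and dashed lines stand at 1.5-fold. The 2 DHRS2 points lie below nearly all probe sets of similar signal, while the DHRS9 point lies in the wide scatter at low signals.

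The genes nearest to DHRS2 in both signals were MZT1, SFPQ, CHMP2B and XIAP out of 11793 genes compared. Their distances from 214079_at in the plane of both log2 signals were 0.19, 0.20, 0.21 and 0.21. The splicing factor SFPQ had signals of 3983 in knock-down and 6848 in control cells (log2 ratio -0.83), the closest of the 4 to DHRS2 in its ratio. XIAP, a caspase inhibitor, had signals of 4340 in knock-down and 6742 in control cells. The 4 genes were chosen by their signals, so a ratio like that of DHRS2 follows from the choice. Each was represented by its probe set with the highest signal alone, of between 2 (MZT1) and 7 (XIAP) kept probe sets. The likeness to DHRS2 rests on 2 arrays only.

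DHRS2 lies on chromosome 14 in a cluster with its relative DHRS4, a peroxisomal enzyme known to reduce retinal and other carbonyl compounds. The only probe set for DHRS4, 218021_at, is annotated to its copy DHRS4L2 too, so the signals of both genes cannot be told apart. Its signal was 1833 in the knock-down cells and 1462 in the control cells (log2 ratio 0.28), below 1.5-fold and on the other side of 0 from DHRS2. The RefSeq promoter windows of DHRS4 and DHRS4L2 that were most alike had 248 of 300 bases in common (82.7%). None of the 10 measured genes next to DHRS2, 5 on either side, was past 1.5-fold. Their log2 ratios lay between -0.46 and 0.52, with a median of 0.17. The 398 measured genes of chromosome 14 had a median of 0.088, with 3.02% at least 1.5-fold lower.

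DHRS7, a reductase of the endoplasmic reticulum, was nearly equal in both conditions. At 210788_s_at the values were 5516 in the knock-down cells and 5377 in the control cells (log2 ratio -0.0082). The probe set 213868_s_at had 128 in the knock-down cells and 133 in the control cells (-0.11), and 236332_at, below the filter, had 87.6 in knock-down and 89.6 in control cells. The sign of the DHRS7 ratio changed with the scaling, with values between -0.10 and 0.063 over 8 alternatives. RTN1, one of the 10 genes next to it on chromosome 14, was lower (-0.72).

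The promoters of DHRS2 and DHRS9 are shown because these genes had the lowest and the highest log2 ratio of the 7, a choice made after their values were seen. The windows span the 250 bases before and 50 bases after the outermost start site in RefSeq (GRCh38.p14). They are written from 5′ to 3′ with matches to the TATA box letters TATAAA, searched on the strand of the gene, in capitals.
DHRS2, chr14:23629865-23630164, plus strand: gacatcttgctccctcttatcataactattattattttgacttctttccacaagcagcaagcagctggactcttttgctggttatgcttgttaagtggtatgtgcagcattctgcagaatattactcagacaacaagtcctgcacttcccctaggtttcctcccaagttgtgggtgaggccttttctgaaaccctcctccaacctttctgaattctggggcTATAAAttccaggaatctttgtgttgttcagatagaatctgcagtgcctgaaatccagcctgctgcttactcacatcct
DHRS9, chr2:169066827-169067126, plus strand: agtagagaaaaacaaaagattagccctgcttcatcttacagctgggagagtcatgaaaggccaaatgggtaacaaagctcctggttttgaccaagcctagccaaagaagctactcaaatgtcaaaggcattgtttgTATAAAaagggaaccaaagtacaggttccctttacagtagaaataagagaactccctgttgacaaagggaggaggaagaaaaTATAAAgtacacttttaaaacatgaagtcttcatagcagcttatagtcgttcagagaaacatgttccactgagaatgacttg
Counted from the start site, the match begins at position -29 in DHRS2, and the 2 matches in DHRS9 begin at -114 and -32. The table held such windows for 7 of the 9 genes, and DHRS2 and DHRS9 were the 2 with a match. Of 27305 genes with a window, 7.73% had one. Their GC content was 44% for DHRS2 and 39.3% for DHRS9, against a median of 58.3% over all windows and 55% to 68.7% for the 5 other genes. The half-site letters of retinoic acid receptors, AGGTCA and AGTTCA, were searched on both strands, and the motifs do not overlap with TATAAA. They were found once in the windows of RDH13 and RDH14 and not in those of DHRS2, DHRS3, DHRS4, DHRS9 and RDH11, while 22.8% of all windows held at least one. A match describes letters only, and the arrays hold no measure of binding.

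DHRS9, which oxidizes retinol and some steroids and is also known from macrophages, was the gene with the highest log2 ratio of the 7. With 219799_s_at, 187 was measured in the knock-down cells and 74.5 in the control cells, a log2 ratio of 1.28 (2.43-fold higher). The signal in the control cells was below the filter, so the size of this ratio is not well determined. The remaining DHRS9 probe sets were below the filter as a whole, with signals of 101.9 in knock-down and 60.4 in control cells for 223952_x_at. For 224009_x_at the signals were 98.0 in knock-down and 74.7 in control cells. All 3 DHRS9 probe sets thus had log2 ratios above 0.

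At this signal level high ratios were frequent. In the lowest signal class (mean signals of 97.7 to 127) the median log2 ratio was 0.21 and 22.2% were at least 1.5-fold higher, and 2.27% had a log2 ratio above that of 219799_s_at. With an offset of 64 added to both signals the log2 ratio of DHRS9 was 0.82. Of the 7 myeloid markers only ITGAM was above the filter, with a signal of 135 in knock-down and 125 in control cells, and CD14 and CD163 were below it in both. Among the 10 genes next to DHRS9 on chromosome 2, the glycosyltransferase gene GALNT3 was higher, with signals of 699 in knock-down and 156 in control cells (log2 ratio 2.11), and KLHL23 was lower (-0.59). The median of these 10 genes was -0.073.

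RDH10, the main retinol dehydrogenase of embryonic retinoic acid synthesis in mice, had log2 ratios above 0 in all 3 kept probe sets. In both probe sets with high signals the difference was below 1.5-fold. For 226021_at the signals were 4895 in knock-down and 4337 in control cells, a log2 ratio of 0.13. For 227467_at they were 2955 in knock-down and 2402 in control cells, a log2 ratio of 0.25. Only 1552378_s_at was past the threshold, with signals of 540 in knock-down and 346 in control cells and a log2 ratio of 0.60 (1.51-fold higher). Of the kept probe sets in its signal class, 6.26% had a higher ratio. It was under 1.5-fold with an offset of 64 (0.52) and when no filter on low signals was set (0.50). The probe set 1552379_at gave signals of 12.3 in knock-down and 1.58 in control cells, far below the filter, and was not used.

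DHRS3, a retinal reductase known to respond to retinoic acid and to act together with RDH10, was measured by 202481_at alone, with 186 in the knock-down cells and 233 in the control cells. The log2 ratio of -0.37 was below 1.5-fold, and 15.9% of the probe sets in its signal class had a lower one. RDH10 and DHRS3 thus had log2 ratios on different sides of 0 in these arrays, and neither gene was past 1.5-fold by its probe set with the highest signal.

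RDH11, a retinal reductase of the endoplasmic reticulum known from prostate and retina, was measured by 4 kept probe sets with log2 ratios on both sides of 0. The brightest, 217776_at, had 6174 in the knock-down cells and 7115 in the control cells (log2 ratio -0.25). In the other direction, 217775_s_at had 3254 in knock-down and 2432 in control cells (0.37). At low signals, 217042_at had 218 in knock-down and 152 in control cells (0.47), and 232359_at had 130.0 in knock-down and 143 in control cells (-0.18). No RDH11 probe set was past 1.5-fold. Its median was 0.097, so the sign of the gene depended on the probe set taken. ARG2, which encodes mitochondrial arginase and is one of the 10 measured genes nearest to RDH11 on chromosome 14, was lower, with signals of 458 in knock-down and 996 in control cells (log2 ratio -1.16). The 10 genes around RDH11 had a median of -0.33.

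RDH13, which is located at the inner membrane of mitochondria, gave the widest disagreement. The probe set with the highest signal, 1559190_s_at, had 344 in the knock-down cells and 509 in the control cells and was lower (log2 ratio -0.61). It was under 1.5-fold without centering (-0.57) and with an offset of 64 (-0.53). In contrast, 225467_s_at had 384 in the knock-down cells and 277 in the control cells (0.42). With 171 in the knock-down cells and 109 in the control cells, 225449_at was higher (0.61), and 15.5% of its signal class had a higher ratio. It was under 1.5-fold after quantile normalization (0.45), after loess subtraction (0.45), with an offset of 64 (0.40) and without a filter (0.51). The fourth probe set, 235249_at, had 129 in the knock-down cells and 117 in the control cells (0.10). Of 4 probe sets, 1 was below 0 and 3 were above 0. Their range of 1.22 exceeded the range of 93.4% of 681 other genes measured by 4 kept probe sets. Those genes were taken at any signal, and ratios scatter more at low signals. RDH13 therefore counted as lower by 1 probe set but had a median of 0.26, and its direction in these arrays is not settled. Among the 10 measured genes nearest to it on chromosome 19, KIR3DX1 was higher at low signals, with 179 in knock-down and 111 in control cells (0.64).

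The probe set 222203_s_at covers RDH14, a retinal reductase, together with the read-through transcript NT5C1B-RDH14. Its signal was 1899 in the knock-down cells and 2473 in the control cells (log2 ratio -0.43), below 1.5-fold, and 12.6% of the probe sets in its signal class had a lower ratio. With the 2 shared probe sets added, the counts of lower and higher genes stayed at 2 and 1, now of 9 genes.

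**Figure D3:**
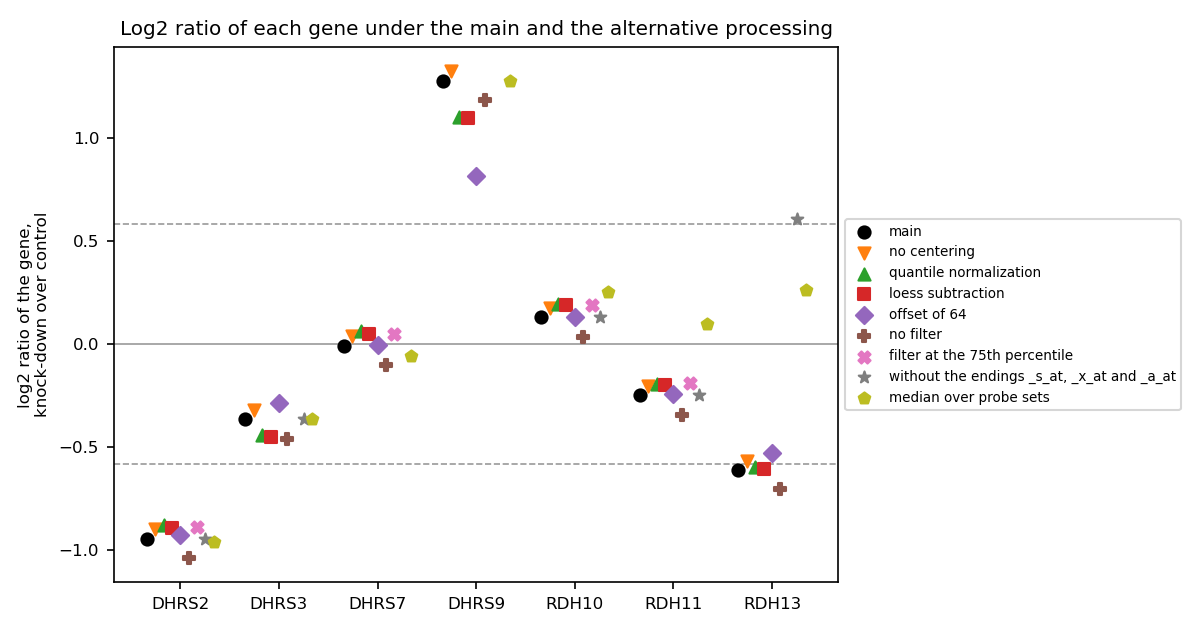
Log2 ratio of knock-down over control for each of the 7 genes (1 array per condition) under the main processing (black circles) and 8 alternatives (other symbols, missing where a gene had no probe set left), with dashed lines at 1.5-fold. DHRS2 stays between -1.04 and -0.88, DHRS9 between 0.82 and 1.32, and RDH13 ranges from -0.71 to 0.61.

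Of the other DHRS and RDH genes and their close relatives on the array, 8 were above the filter and 7 below it. Of the 8, 1 was at least 1.5-fold lower (5.42% of all genes were) and 0 at least 1.5-fold higher (7.54% were). The lower one was DHRS7B, with a signal of 900.1 in the knock-down cells and 1347 in the control cells (log2 ratio -0.63). DHRS1 was near the threshold on the other side of 0, with 657 in knock-down and 430.2 in control cells (0.57). RDH5, the 11-cis retinol dehydrogenase of the retina, had 325 in knock-down and 421 in control cells (-0.42). The median of these 8 genes was -0.30. RDH8, RDH12 and RDH16 were below the filter.

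Of 38 further genes of retinoid metabolism, 13 were measured and 20 were below the filter. Those below it included the retinal dehydrogenases ALDH1A1, ALDH1A2 and ALDH1A3, the storage enzyme LRAT and CYP26B1, which breaks down retinoic acid and had signals of 11.0 in knock-down and 12.2 in control cells. The alcohol dehydrogenase ADH4 was higher by its only kept probe set, 223781_x_at, with signals of 485 in knock-down and 127 in control cells (log2 ratio 1.88). The 3 remaining ADH4 probe sets were far below the filter, with signals between 1.65 and 41.5 over both arrays, and had log2 ratios of both signs. Whether ADH4 is expressed in these cells is thus not settled. The binding protein CRABP2, which carries retinoic acid to its receptors, was higher, with 166 in knock-down and 93.7 in control cells (0.78). CYP26A1, another enzyme of retinoic acid breakdown, was lower, with 85.4 in knock-down and 125 in control cells (-0.60). Of the 13 genes, 1 was thus lower (5.42% of all genes were) and 2 were higher (7.54% were). Their median log2 ratio was 0.21. FABP5, another carrier of retinoic acid, had a high signal of 9483 in knock-down and 6815 in control cells (0.43), below 1.5-fold.

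Of 30 genes that retinoic acid is known to induce in one cell type or another, 18 were measured, 6 were at least 1.5-fold higher (7.54% of all genes were) and CYP26A1 was lower (5.42% of all genes were). The median log2 ratio was 0.083. ASB2, a ubiquitin ligase subunit, was higher in both probe sets, with signals of 967 in knock-down and 458 in control cells for 233857_s_at (1.03). The retinoic acid receptor gene RARB had 160 in knock-down and 88.7 in control cells (0.80). RARB and CRABP2 lie in the lowest signal class, in which 22.2% of all probe sets were higher, and passed the filter only through their signal in the knock-down cells. CYP26A1 passed it only through its signal in the control cells. HOXB5 had a log2 ratio of 0.67 in 205600_x_at and 0.19 in 205601_s_at, and its median of 0.43 was under 1.5-fold. The other 2 higher genes had ratios between that of HOXB5 and the threshold. DHRS3 is a member of this list and had a log2 ratio of -0.37. Apart from ASB2, the control signals of these 6 genes were between 88.7 and 190, and with an offset of 64 only ASB2 was past 1.5-fold. Their part in the count of the high ratios at low signals was not tested.

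**Figure D4:**
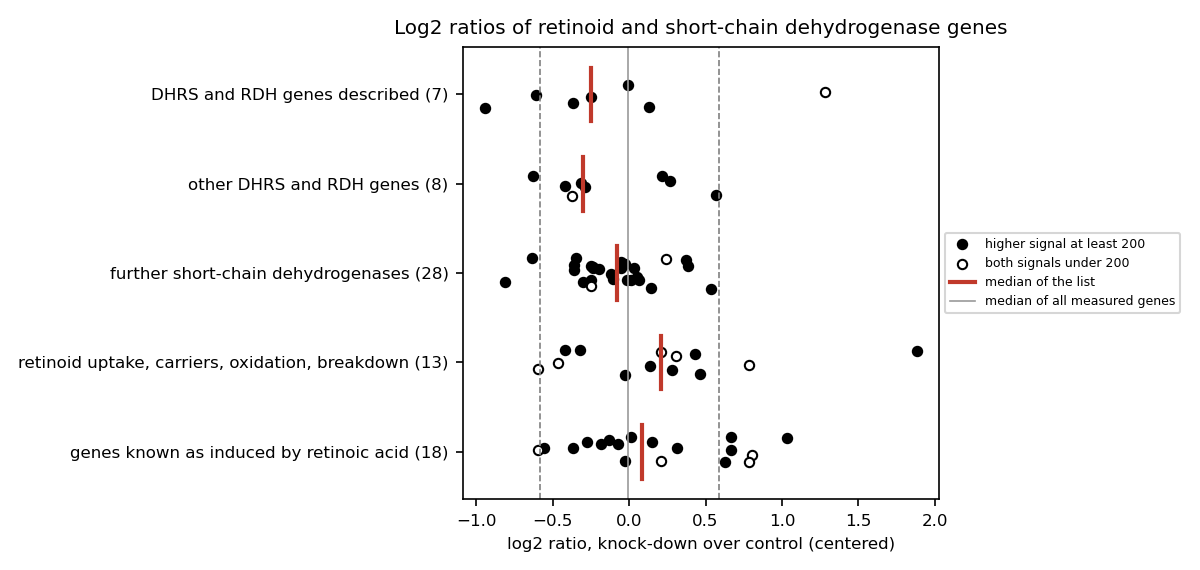
Log2 ratio of knock-down over control of each measured gene (1 array per condition) in 5 gene lists, with the number of measured genes in brackets. Open points had signals under 200 in both arrays, red bars are the median of each list (from top to bottom -0.25, -0.30, -0.080, 0.21 and 0.083), the grey line is the median of all measured genes and dashed lines stand at 1.5-fold.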

How the data were processed

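The 2 HG_U133PLUS2.0 arrays were analyzed, 1 with L-428 cells after PRAME knock-down and 1 with vector control cells. The authors deposited MAS5 signal intensities made with expression console 1.1, on a linear scale, for 54675 probe sets. In MAS5 the background is subtracted and the probe pairs are summarized to a signal per probe set. The mean without the highest and lowest 2% of signals was 500.1 on both arrays. RMA values and detection calls were not used here.

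Control probe sets (62) were left out. Signals were log2-transformed with no offset. Probe sets whose mean log2 signal reached the median of all were kept (27307), and ratios were centered on their median (0.045 was subtracted). The platform annotation assigned 1 symbol to 41097 probe sets, more than 1 to 1801 and no symbol to 11777. Of the first, 41043 were found in the RefSeq table of GRCh38.p14, used for names and gene order. Per gene, the brightest kept probe set was taken. The pooled SD of log2 ratios between the probe sets of a gene was 0.33 (5840 genes) and was used as the measure of a shift between settings in place of replicates. All probe sets of the 9 genes are named, as are the 4 genes nearest to DHRS2 in both log2 signals and neighbours past 1.5-fold. Of the lists of other DHRS and RDH genes, further short-chain dehydrogenases, retinoid metabolism and genes induced by retinoic acid, genes past 1.5-fold are named, at most 4 per direction, beside examples below it chosen after their values were seen. The members and lists were chosen with earlier results of these data known. The computation was tested on simulated data with the same small noise at every signal. That test checks the arithmetic only, since the scatter in the arrays is larger and depends on signal. Alternatives were no centering, quantile normalization, loess subtraction (span 0.4), an offset of 64, a filter at the 75th percentile or none, leaving out the endings _s_at, _x_at and _a_at, shared probe sets added, the median over probe sets and 2-fold. Calculations were done in Python 3.11.15 with pandas 2.3.3, numpy 2.4.6 and statsmodels 0.14.6, and plots were drawn with matplotlib 3.10.9. A planned comparison of protein sequences was not made, since no protein table was used here.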

Additional observations from a re-analysis of the deposited data

How the results depend on the processing

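No paired analysis was possible because there was 1 array per condition, and no replicate could be left out. The log2 ratios of the 17 probe sets under the alternatives gave 101 values, of which 100 moved by less than 0.33 and 1, DHRS9 with an offset of 64 (0.82), by more. By gene, DHRS9 was 0.82 with this offset as well. With the median over probe sets RDH11 was 0.097, the median of the 7 genes was 0.097 and RDH13 reversed to 0.26. Without the endings _s_at, _x_at and _a_at, RDH13 reversed to 0.61, since only its probe sets above 0 were left.

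The count of lower genes was 1 without centering, with the offset, at the 75th percentile, without the endings and with the median over probe sets, and 0 at 2-fold. The count of higher genes was 0 at the 75th percentile, where 4 genes with 7 probe sets were left and DHRS9 was not among them. Without the endings 5 genes with 9 probe sets were left. The 1 higher gene was then RDH13 (0.61), as DHRS9 had no probe set left. Of the probe sets, 2 were lower without centering, with the offset and at the 75th percentile, 1 without the endings and 0 at 2-fold. The number of higher ones was 2 after quantile normalization and after loess subtraction. It was 1 with the offset, without the endings and at 2-fold and 0 at the 75th percentile. Of all kept probe sets, 4.07% were lower and 3.75% higher at the 75th percentile, and 4% and 4.01% with the offset. The shares were 6% and 9.55% without the endings, and 5.15% and 9.68% without centering. Over all genes, 639 were lower and 889 higher, against 2331 and 3480 without a filter, 273 and 254 at the 75th percentile, and 463 and 476 with the offset. As shares of all genes measured, these were 11.8% and 17.6% without a filter, 3.69% and 3.44% at the 75th percentile, and 3.93% and 4.04% with the offset. In the other settings at 1.5-fold, the share lower was between 4.49% and 5.92% and the share higher between 6.37% and 8.84%. The share of all genes past 1.5-fold that were lower was 41.8%, and 51.8% at the 75th percentile.

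Of the other DHRS and RDH genes, 0 were lower without centering, after quantile normalization, after loess subtraction, at the 75th percentile and without the endings, and 2 without a filter. The number higher was 1 without centering, after quantile normalization, after loess subtraction, without a filter and at the 75th percentile. Of the further short-chain dehydrogenases, 1 was lower with the offset, at the 75th percentile and with the median over probe sets, and 4 without a filter, while 1 was higher after quantile normalization, after loess subtraction and at the 75th percentile and 4 without a filter. Of the retinoid metabolism genes, 0 were lower without centering, with the offset and at the 75th percentile, 2 after quantile normalization, after loess subtraction and without the endings, and 4 without a filter. The number higher was 1 with the offset and without the endings, 6 without a filter and 0 at the 75th percentile. Of the genes induced by retinoic acid, 0 were lower without centering, with the offset and at the 75th percentile and 2 without a filter. The number higher was 4 after quantile normalization, after loess subtraction and without the endings. It was 5 without a filter and with the median over probe sets, and 1 with the offset and at the 75th percentile. Without a filter, every gene with a probe set of its own counted, 15, 39, 33 and 26 genes in the order of these lists. In that setting 11.8% of all genes were lower and 17.6% higher. At the 75th percentile 3.69% of all genes were lower and 3.44% higher, and with the offset 3.93% and 4.04%. In the other settings, 4.49% to 5.92% of all genes were lower and 6.37% to 8.84% higher. The cause was not tested where none is named.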

Other observations

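Further short-chain dehydrogenases of steroid, fatty acid and sugar metabolism, 28 of them measured, had log2 ratios with a median of -0.080, and 2 were at least 1.5-fold lower (7.14%, against 5.42% of all genes) and none at least 1.5-fold higher (7.54% of all genes). KDSR, which makes dihydrosphingosine in sphingolipid synthesis, had signals of 1020 in the PRAME knock-down cells and 1739 in the vector control cells for 202419_at (log2 ratio -0.81), while its 2 other kept probe sets had log2 ratios of -0.24 and -0.26. The median over the 170 genes measured on chromosome 18, where KDSR lies, was -0.31. HSD17B1, which makes estradiol from estrone, had signals of 522 in knock-down and 784 in control cells (-0.63), and its second probe set, below the filter, had a log2 ratio on the other side of 0, with 107.3 in knock-down and 33.8 in control cells (1.62). HSD17B10, a mitochondrial enzyme, was below the threshold with signals of 3330 in knock-down and 2227 in control cells (0.54).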
